A study of Homo sapiens with 18 samples.

Results

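The total RNA of 2 HEK293T lines was compared, one expressing a YTHDF2-ADAR fusion and the other a YTHDF1-ADAR fusion, with 3 libraries each, 6 of the 18 libraries of the series. HEK293T is a human embryonic kidney derived line that carries SV40 large T antigen and is known for a rearranged karyotype. All groups received 1 µg/mL doxycycline for 24 h, which induces the fusion, and then 100 µg/mL cycloheximide for 10 min, which stalls translating ribosomes. The other libraries hold total RNA of a YTHDF3-ADAR line and RNA from pooled polysome fractions, messages carrying more than 2 ribosomes, of all 3 lines. Every group therefore carried a reader fused to an editing enzyme, and each difference given here lies between fusion lines, not between a fusion and its absence. The labels do not say whether a line is 1 clone or a pool, nor whether its 3 libraries came from separate cultures, so the p-values measure the spread between these libraries, which may be technical.

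YTHDF1, YTHDF2 and YTHDF3 are cytoplasmic proteins that bind N6-methyladenosine (m6A), the most common internal modification of messenger RNA, through a YTH domain. YTHDF2 is best known for recruiting the CCR4-NOT deadenylase to methylated messages and hastening their decay, and YTHDF1 has been linked to translation. ADAR enzymes deaminate adenosine to inosine in RNA, so a reader fused to ADAR leaves edited bases on the messages it meets, the principle of the HyperTRIBE assay.

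Total RNA held between 43.3 and 58.0 M counted reads per library (M for 1e6), from rRNA-depleted RNA. The share of reads in lncRNA genes was 13.8% to 25.7%, the highest in replicate 1 of the YTHDF1-ADAR line, whose protein-coding share of 55.2% was the lowest of the 6. All 9 HEK293T-typical genes of the marker list passed the filter on low counts, with VIM at 275 to 312 CPM (read counts per 1e6 reads of library size, scaled by TMM normalization factors). Of the markers of other cell types, PTPRC was at or under 0.0243 CPM, CD3E was at 0, and CDH5 was at or under 0.0471 CPM. DCN was at or under 0.0300 CPM and ALB was at or under 0.0943 CPM. Other members of these lists were detected in every library, COL1A1 at 5.76 to 10.0 CPM, VIL1 at 5.95 to 14.5 CPM, HBA1 at 3.28 to 5.53 CPM, CD68 at 2.09 to 3.14 CPM, KRT8 at 11.4 to 20.4 CPM and KRT18 at 17.9 to 29.8 CPM.

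The targeted genes were examined first, since they check the labels. YTHDF1 was at 445, 358 and 372 CPM in the YTHDF1-ADAR libraries and at 88.8, 78.8 and 82.0 CPM in the YTHDF2-ADAR libraries, a log2 fold change (YTHDF2-ADAR over YTHDF1-ADAR) of -2.24 ± 0.16 (SE, adjusted p = 4.92e-07). YTHDF2 was at 156, 136 and 150 CPM against 276, 288 and 260 CPM, a log2 fold change of 0.90 ± 0.13 (adjusted p = 0.00118). For each of these genes the line labelled with it held the higher level in every library, and the gene counts join reads of the fusion with those of the cell's own gene. YTHDF3 was at 55.5 ± 8.59 and 51.3 ± 5.33 CPM (SD, n = 3 in each line) and its difference did not pass the test (adjusted p = 0.99). ADAR, encoding ADAR1, was at 280 ± 13.3 and 305 ± 9.46 CPM (SD, n = 3) and did not pass it either (adjusted p = 0.889). ADARB1, encoding the editing enzyme ADAR2, was at 268, 237 and 238 CPM in the YTHDF1-ADAR line and at 40.5, 38.7 and 37.5 CPM in the YTHDF2-ADAR line, a log2 fold change of -2.67 ± 0.14 (adjusted p = 1.34e-08). In the YTHDF3-ADAR line ADARB1 averaged 1456 ± 326 CPM (SD, n = 3). The labels do not state which ADAR gene supplied the enzyme, and reads of a transgene and of the cell's own ADARB1 cannot be told apart in gene counts. Among called genes, the level over the means of the 6 groups was most like that of ADARB1 for FAM221A (Pearson r = 0.9989), ENSG00000264125 (r = 0.9953) and ENSG00000283839 (r = 0.9918), a description over 6 means in which the YTHDF3-ADAR line is far above the others.

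Across the transcriptome a small share of the tested genes was called, and genes without a call may still differ between the lines. Of 26804 genes tested, 146 were higher in YTHDF2-ADAR cells (0.545%) and 344 were lower (1.28%) at an adjusted p under 0.05, 1.83% in all, and the median log2 fold change over all tested genes was 0.0017. Protein-coding genes supplied 123 of the higher and 293 of the lower genes (0.785% and 1.87% of the 15675 tested), and lncRNA genes 18 and 40. The changes of the lower set reached further: 121 genes were down at least 2-fold and 59 at least 4-fold, against 44 and 12 in the upward direction. Most called genes moved less, and 47 of the higher and 118 of the lower genes changed by under 1.5-fold. For all 490 called genes the 3 libraries of one line lay apart from the 3 of the other, which held for 20.2% of all tested genes (8.54% higher, 11.6% lower). The number of calls depended on the libraries fitted: leaving out any 1 of the 6 libraries gave 76 to 93 higher and 156 to 232 lower genes, and a fit on the 6 libraries alone, which tested 23805 genes, gave 300 and 669.

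Among called protein-coding genes with a mean of at least 4 CPM over the 6 libraries, a cell cycle regulator had the largest increase. CCND1, which encodes cyclin D1, the partner of CDK4 and CDK6 at entry into the cell cycle, lies on chromosome 11 (GRCh38, 69641156 to 69654474, plus strand). CCND1 stood at 15.5, 13.98 and 16.5 CPM in the YTHDF1-ADAR libraries and at 104, 103 and 103 CPM in the YTHDF2-ADAR libraries, a log2 fold change of 2.75 ± 0.20 (adjusted p = 4.93e-07). The YTHDF3-ADAR libraries averaged 28.2 ± 8.29 CPM (SD, n = 3). CCND1 sat apart from its neighbourhood: LTO1, whose annotated span overlaps the end of CCND1 on the other strand, rose by 0.71 on the log2 scale (adjusted p = 0.0003), while FADD (log2 fold change -0.15, adjusted p = 0.943) and TPCN2 (0.09, adjusted p = 0.995) did not pass the test. No source used here gives the strand setting of the counting, so reads of overlapping genes may be shared.

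CCND2, the cyclin D2 gene, rose from 193, 171 and 220 CPM to 306, 345 and 331 CPM, a log2 fold change of 0.75 ± 0.13 (adjusted p = 0.00578), and the lncRNA gene CCND2-AS1 beside it rose by 0.73 (adjusted p = 0.00408). No other member of the list of G1 cyclins and kinases passed the test: 2 of 19 were higher (10.5%) and 0 lower, beside 0.785% and 1.87% of all tested protein-coding genes, with a list median of 0.0087. CCND3, the remaining D-type cyclin, had a log2 fold change of 0.00, CDK4 of 0.12 and CDK6 of 0.42. Cyclin E2 (CCNE2) was at -0.55 and the inhibitor p27 (CDKN1B) at -0.35.

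Other genes with large increases had various known roles. DPYSL3, a collapsin response mediator protein of growing axons, was at 5.41, 4.24 and 3.88 CPM against 17.4, 14.8 and 14.5 CPM (log2 fold change 1.79 ± 0.17, adjusted p = 1.37e-05). PCDH19, a protocadherin, was at 3.67, 4.68 and 3.66 CPM against 11.6, 14.2 and 15.3 CPM (1.77 ± 0.13, adjusted p = 5.34e-07). NDRG1, a stress and hypoxia responsive gene, was at 55.6, 56.3 and 44.1 CPM against 141, 123 and 126 CPM (1.32 ± 0.21, adjusted p = 0.00183). In each of these 3 genes the lowest YTHDF2-ADAR library lay above the highest YTHDF1-ADAR library by a margin wider than the range within either line. The muscarinic receptor gene CHRM3 (log2 fold change 1.20), the receptor phosphatase gene PTPRD (1.19) and the Wnt receptor gene FZD10 (1.18) followed. LGR5, a receptor for R-spondins, had a log2 fold change of 1.00 (adjusted p = 0.0107), and its call was lost in 4 of the 6 fits that left out 1 library. NKX2-4, a homeobox gene at 0.94 (adjusted p = 0.0177), lost its call in 5 of the 6.

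**Figure D1:**
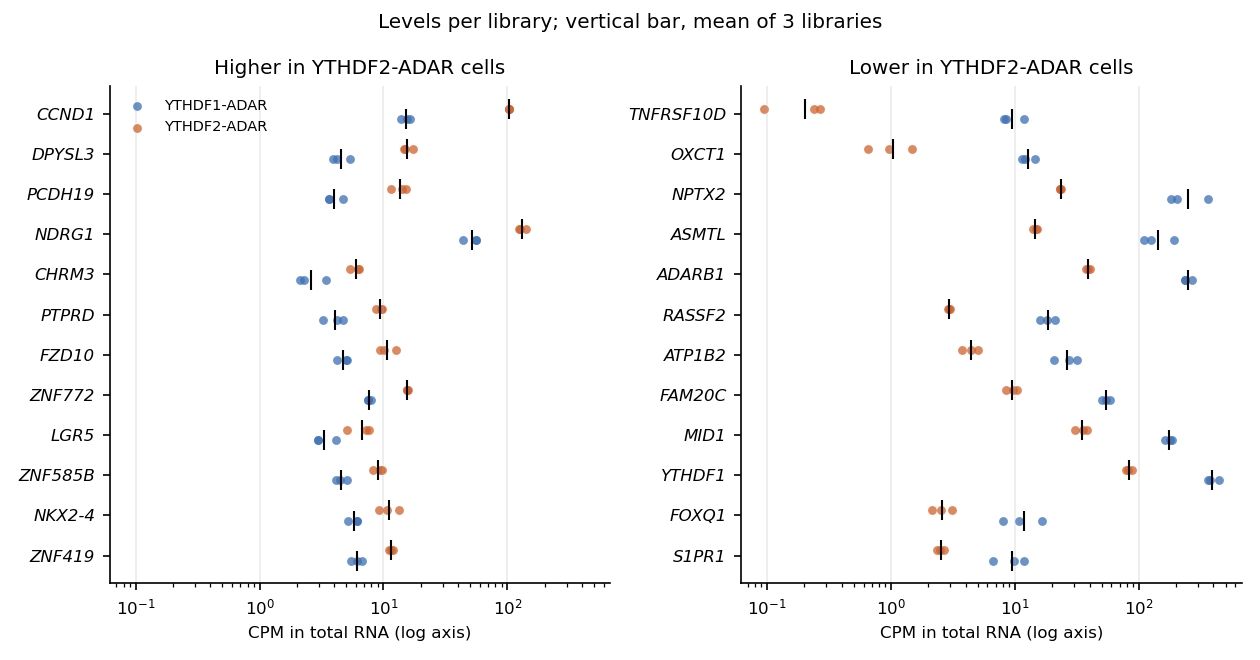
CPM per library on a log axis for the 12 called protein-coding genes (mean of at least 4 CPM) with the largest increase (left) and the 12 with the largest decrease (right) in YTHDF2-ADAR cells; points are libraries and the bar is the mean of 3. The 2 colours do not overlap in any row, which was a condition for choosing the genes.

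The median size was similar in the called decreases (-0.73) and increases (0.75), but the largest decreases went further, and several genes were nearly silent in 1 line. TNFRSF10D, a decoy receptor for the death ligand TRAIL, was at 8.44, 8.11 and 11.8 CPM in YTHDF1-ADAR cells and at 0.240, 0.269 and 0.0943 CPM in YTHDF2-ADAR cells (log2 fold change -5.53 ± 0.40, adjusted p = 6.31e-07). OXCT1, the mitochondrial enzyme that commits ketone bodies to oxidation, was at 14.5, 11.5 and 12.1 CPM against 1.47, 0.653 and 0.966 CPM (-3.66 ± 0.25, adjusted p = 3.52e-07). The YTHDF3-ADAR line sat with the YTHDF1-ADAR line for both, at 7.54 ± 2.49 CPM for TNFRSF10D and 14.6 ± 1.38 CPM for OXCT1 (SD, n = 3). NPTX2, a secreted neuronal pentraxin that clusters glutamate receptors, was at 203, 181 and 362 CPM against 23.6, 23.2 and 23.3 CPM (-3.41 ± 0.29, adjusted p = 4.52e-06). Its YTHDF1-ADAR libraries spread widely, whereas the YTHDF2-ADAR libraries were nearly equal, and the YTHDF3-ADAR line (28.2 ± 5.70 CPM; SD, n = 3) lay near the YTHDF2-ADAR line.

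The promoters of NPTX2 and OXCT1 are shown because these genes carry 2 of the largest decreases. They are the 250 bases before the RefSeq start (GRCh38.p14), NPTX2 at chr7:98617035-98617284 on the plus strand and OXCT1 at chr5:41870426-41870675 on the minus strand, with matches to a GC box (GGGCGG) or a CCAAT box (CCAAT), on either strand, in capitals.
NPTX2: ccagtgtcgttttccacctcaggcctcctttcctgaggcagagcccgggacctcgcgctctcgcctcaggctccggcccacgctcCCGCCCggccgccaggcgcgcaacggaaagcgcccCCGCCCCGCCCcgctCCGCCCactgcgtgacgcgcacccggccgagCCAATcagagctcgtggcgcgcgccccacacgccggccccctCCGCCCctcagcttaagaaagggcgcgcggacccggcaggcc
OXCT1: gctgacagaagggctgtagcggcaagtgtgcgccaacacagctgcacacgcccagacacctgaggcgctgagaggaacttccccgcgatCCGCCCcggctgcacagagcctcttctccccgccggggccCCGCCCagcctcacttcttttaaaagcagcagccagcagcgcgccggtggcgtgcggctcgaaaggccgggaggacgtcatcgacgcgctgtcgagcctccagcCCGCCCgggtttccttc
NPTX2 held 5 GC boxes and 1 CCAAT box and OXCT1 held 3 GC boxes. Of 12104 tested protein-coding genes with a promoter entry (of 15668), 65.2% held a GC box and 34.8% a CCAAT box, and among the 146 called lower genes with an entry the shares were 70.5% and 36.3%. The cyclic AMP response element (TGACGTCA) stood in 2.79% of all entries, in 7 of 93 called higher genes (7.53%) and in 1 of 146 lower genes (0.685%). The shares for the E-box (CACGTG, either strand) were 8.62%, 7.53% and 7.53%. A match is a run of letters in this window and was not tested as a bound site.

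FAM20C, a secretory pathway kinase, fell from 54.1, 58.6 and 50.3 CPM to 10.4, 8.39 and 9.59 CPM (log2 fold change -2.52 ± 0.12, adjusted p = 6.46e-09). MID1, a microtubule-bound ubiquitin ligase, fell from 162, 180 and 184 CPM to 30.5, 38.0 and 35.4 CPM (-2.34 ± 0.10, adjusted p = 1.59e-09). The YTHDF3-ADAR line was near the YTHDF2-ADAR line for both, at 12.8 ± 1.96 CPM for FAM20C and 32.2 ± 1.45 CPM for MID1 (SD, n = 3). RASSF2 (log2 fold change -2.65), the sodium pump subunit gene ATP1B2 (-2.60), the forkhead gene FOXQ1 (-2.19) and the sphingosine phosphate receptor gene S1PR1 (-1.91) completed, with ASMTL, ADARB1 and YTHDF1, the 12 largest decreases among called protein-coding genes with a mean of at least 4 CPM. FOXCUT, a noncoding gene near FOXQ1, also fell (-1.19, adjusted p = 0.00209).

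Some of these decreases came in neighbours. At the pseudoautosomal end of chromosome X, ASMTL fell from 124, 110 and 191 CPM to 15.2, 13.9 and 14.7 CPM (log2 fold change -3.28 ± 0.39, adjusted p = 0.000199). The overlapping ASMTL-AS1 fell with it (-3.16, adjusted p = 0.00105), and the purinergic receptor gene P2RY8 next to them, at 2.79, 1.60 and 6.04 CPM in YTHDF1-ADAR cells, was at 0.0299, 0.0576 and 0 CPM in YTHDF2-ADAR cells (adjusted p = 0.000231). The genes on either side, SLC25A6 (0.01) and AKAP17A (-0.09), did not pass the test. On chromosome 1, the immediate early gene IER5 fell from 299, 308 and 269 CPM to 91.1, 74.7 and 77.5 CPM (-1.85 ± 0.12, adjusted p = 2.54e-07). GLUL, encoding glutamine synthetase, fell from 665, 588 and 641 CPM to 371, 344 and 329 CPM (-0.86 ± 0.10, adjusted p = 0.000131). The same stretch of chromosome 1 held the called decreases of C1orf220 (-1.67), RALGPS2-AS1 (-2.64), STX6 (-0.36) and NMNAT2 (-2.02), among genes such as CEP350 (0.05), XPR1 (0.11) and DHX9 (0.19) that did not pass the test. Conversely, ENSG00000250284 on chromosome 5 was at 1.86, 1.94 and 1.98 CPM in YTHDF2-ADAR cells and at or under 0.0300 CPM in YTHDF1-ADAR cells (adjusted p = 1.34e-06).

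The same contrast was available in polysome RNA, in 6 other libraries. Their values do not enter the total RNA fold changes, but all 18 libraries shared the filter and the estimate of the spread behind both sets of calls. In polysome RNA 204 genes were higher (0.761%) and 427 lower (1.59%), 2.35% in all. All 146 genes higher in total RNA had a positive log2 fold change there and 126 of them were called; of the 344 lower genes 343 had a negative one and 306 were called. No gene was called in opposite directions. CCND1 had a log2 fold change of 2.75 in polysome RNA too, MID1 of -2.29, and IER5 of -1.72. The difference of the line effect between the fractions was called for 0 of 26804 genes by edgeR (lowest adjusted p = 0.99997, 166 genes at an unadjusted p under 0.05) and for 0 by DESeq2 (210 unadjusted). Both unadjusted counts lie well below a share of 0.05 of the genes tested, the share due without any difference. The test therefore calls too rarely here, and its 0 calls do not show that the line effects are equal. Both fractions come from the same lines, so the polysome libraries repeat the measurement and not the making of the lines.

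**Figure D2:**
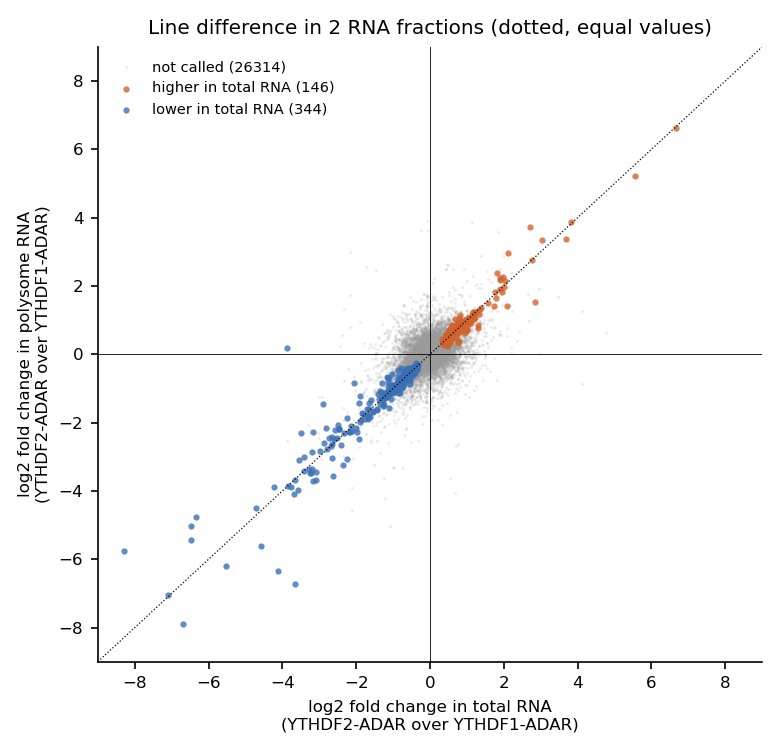
Log2 fold change (YTHDF2-ADAR over YTHDF1-ADAR) in total RNA (x) and polysome RNA (y) for 26804 tested genes; orange, 146 genes higher in total RNA; blue, 344 lower; grey, not called. The called genes lie along the dotted line of equal values, with 1 blue point above 0 on the y axis.

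Many of the differences were grouped by chromosome position. Over the tested protein-coding genes of chromosome 8 the median log2 fold change was -0.36, and 479 of 524 were negative; 88 (16.8%) were called lower and 5 (0.954%) higher, against 1.87% and 0.785% of all tested protein-coding genes. The median of the 3 YTHDF2-ADAR libraries on that chromosome stood apart from every other chromosome. Of 259 windows of 10 Mb with at least 20 tested protein-coding genes, 17 had a median below -0.1 and 12 above 0.1. The window medians in total and polysome RNA had a Pearson r of 0.914, a description over neighbouring genes of the same lines. Calls were concentrated in few places: chromosome 8, the stretch of chromosome 9 from 18 to 40 Mb, the first 30 Mb of chromosome 20 and chromosome 19 from 43 Mb held 83 of the 146 higher and 138 of the 344 lower genes. These 4 regions held 931, 209, 223 and 601 of the 26804 tested genes, and the other 24840 lay elsewhere. These 4 regions and the edges of the stretches described next were chosen after their values were seen, so they are descriptions with no test.

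**Figure D3:**
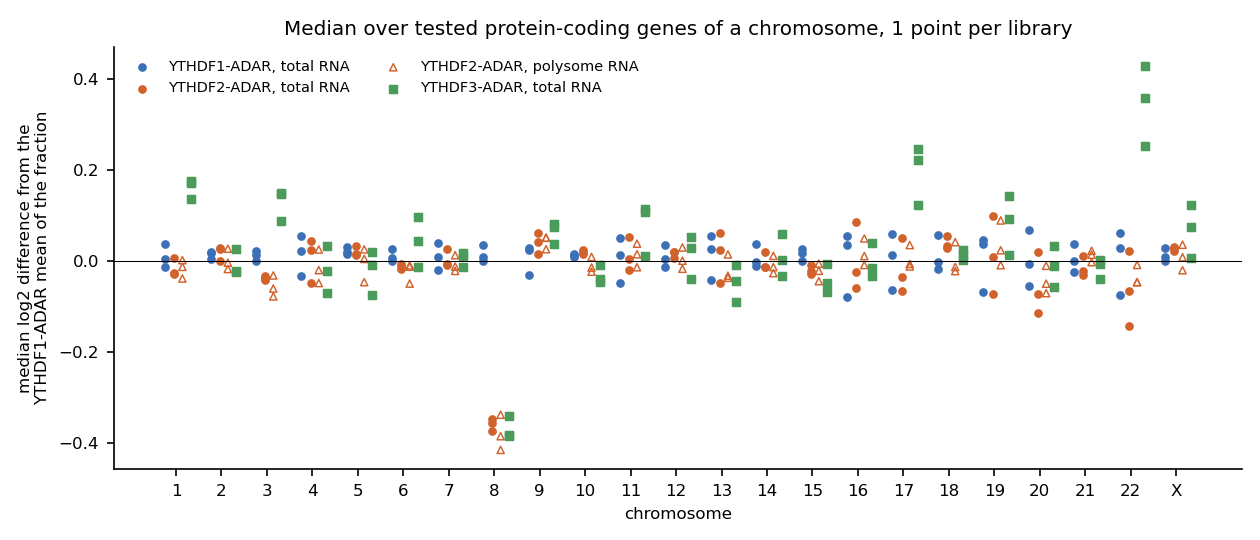
Median over the tested protein-coding genes of each chromosome of the log2 difference from the YTHDF1-ADAR mean of the same fraction, 1 point per library; YTHDF1-ADAR total (blue), YTHDF2-ADAR total (orange) and polysome (open triangles), YTHDF3-ADAR total (green squares). On chromosome 8 the YTHDF2-ADAR points lie near -0.36, below all other chromosomes, and so do the YTHDF3-ADAR points.

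On chromosome 8 the shift was broad and even. Up to 123 Mb, 285 of 293 protein-coding genes with a mean of at least 4 CPM had a negative log2 fold change, with a median of -0.40 (quartiles -0.49 and -0.29), which is 0.759 of the YTHDF1-ADAR level. The per-library medians were -0.43, -0.37 and -0.39 in the YTHDF2-ADAR line and within 0.044 of 0 in the YTHDF1-ADAR line. In polysome RNA the median was -0.43. Among the called decreases were the neurofilament gene NEFL (276, 258 and 321 CPM against 125, 121 and 135 CPM, log2 fold change -1.17, adjusted p = 0.00098), the respiratory chain gene UQCRB (-0.53, adjusted p = 0.00481) and the Wnt antagonist gene SFRP1 (-1.64, adjusted p = 0.00044). NEFM, beside NEFL, was at 1099, 855 and 1074 CPM against 295, 316 and 354 CPM but did not pass the test (-1.65 ± 0.44, adjusted p = 0.0784). The 8 genes that were not negative included PRKDC (0.04), FGFR1 (0.15) and the called SNAI2, a transcription factor of epithelial to mesenchymal transition (0.87 ± 0.11, adjusted p = 0.00044). Toward the end the shift was smaller, -0.20 between 123 and 136 Mb and -0.18 beyond, and the other 4 called increases of chromosome 8, TRIB1 (0.53), NDRG1, ST3GAL1 (0.58) and ARC (0.85), all lay there. MYC had a log2 fold change of 0.44 (adjusted p = 0.518).

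Chromosome 20 held a step in which the sign changed between neighbouring genes. From ZCCHC3 to NDUFAF5, the first 15 Mb, all 67 protein-coding genes with a mean of at least 4 CPM had a negative log2 fold change, with a median of -0.58 (0.667 of the YTHDF1-ADAR level), and 41 of the 89 tested there were called lower (46.1%). From KIF16B to ZNF337, up to 30 Mb, all 38 such genes had a positive one, with a median of 0.44 (1.36 times), and 14 of the 47 tested were called higher (29.8%). Beyond 30 Mb, from HM13 on, 101 were positive and 116 negative, with a median of -0.01. The library medians were -0.51, -0.62 and -0.61 for the first stretch and 0.50, 0.41 and 0.41 for the second, and the polysome medians were -0.57 and 0.44. Called decreases included PCNA, the sliding clamp of DNA replication (169, 156 and 167 CPM against 120, 107 and 107 CPM, -0.56 ± 0.09, adjusted p = 0.0036), FKBP1A, the target of rapamycin and FK506 (-0.55, adjusted p = 0.00104), and MAVS, the mitochondrial adaptor of RNA sensing (-0.60, adjusted p = 0.00583). The call of MAVS was lost without YTHDF2-ADAR replicate 3 (adjusted p = 0.0508). Called increases included SNX5, a sorting nexin of the retromer pathway (181, 179 and 186 CPM against 264, 279 and 264 CPM, 0.57 ± 0.08, adjusted p = 0.00078), and XRN2, a nuclear exonuclease (0.54, adjusted p = 0.04). The libraries of the lines did not overlap for PCNA and SNX5, as for all 490 called genes and 20.2% of all tested genes.

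The promoters of PCNA and SNX5, genes on either side of the step that moved in opposite directions by the same amount, are given as the 250 bases before the RefSeq start (GRCh38.p14, minus strand), PCNA at chr20:5126623-5126872 and SNX5 at chr20:17968795-17969044. Capitals mark GC boxes and CCAAT boxes in PCNA and a cyclic AMP response element in SNX5.
PCNA: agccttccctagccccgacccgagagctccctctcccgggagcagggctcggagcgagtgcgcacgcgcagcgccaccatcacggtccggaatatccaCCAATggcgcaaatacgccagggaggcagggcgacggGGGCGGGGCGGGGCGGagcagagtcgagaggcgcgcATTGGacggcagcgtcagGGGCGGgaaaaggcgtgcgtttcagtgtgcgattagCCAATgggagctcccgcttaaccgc
SNX5: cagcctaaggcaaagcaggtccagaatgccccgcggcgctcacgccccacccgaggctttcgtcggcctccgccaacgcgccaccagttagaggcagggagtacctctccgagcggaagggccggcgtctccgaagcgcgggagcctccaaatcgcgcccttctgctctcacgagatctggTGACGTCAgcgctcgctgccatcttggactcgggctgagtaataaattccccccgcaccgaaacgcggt
PCNA held 4 GC boxes and 3 CCAAT boxes, and SNX5 held 1 cyclic AMP response element, 69 bases before the start.

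Chromosome 9 showed the reverse of chromosome 8 over part of its length. From RRAGA to CDKN2B all 12 protein-coding genes with a mean of at least 4 CPM had a positive log2 fold change, with a median of 0.75 (1.68 times the YTHDF1-ADAR level). From ELAVL2 to 40 Mb, 75 of 76 were positive, with a median of 0.42 (1.34 times) and DCAF12 as the exception, and 21 of the 99 tested were called higher (21.2%). From 60 Mb to the end 185 were positive and 172 negative, with a median of 0.0012. CDKN2A, encoding the cell cycle inhibitor p16 and the p53 activator ARF, was at 114, 132 and 104 CPM against 243, 190 and 225 CPM (0.91 ± 0.11, adjusted p = 0.000183). MTAP, the methionine salvage gene next to it, was at 42.9, 42.2 and 44.9 CPM against 69.5, 75.6 and 72.9 CPM (0.75 ± 0.08, adjusted p = 4.87e-05). The antisense gene CDKN2B-AS1 rose as well (0.82, adjusted p = 0.00172). TLN1, encoding the integrin adaptor talin, had 141, 128 and 126 CPM against 201, 216 and 216 CPM (0.68 ± 0.16, adjusted p = 0.0445). Its call was lost in all 6 fits without 1 library. Its libraries did not overlap between the lines, which held for every called gene.

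**Figure D4:**
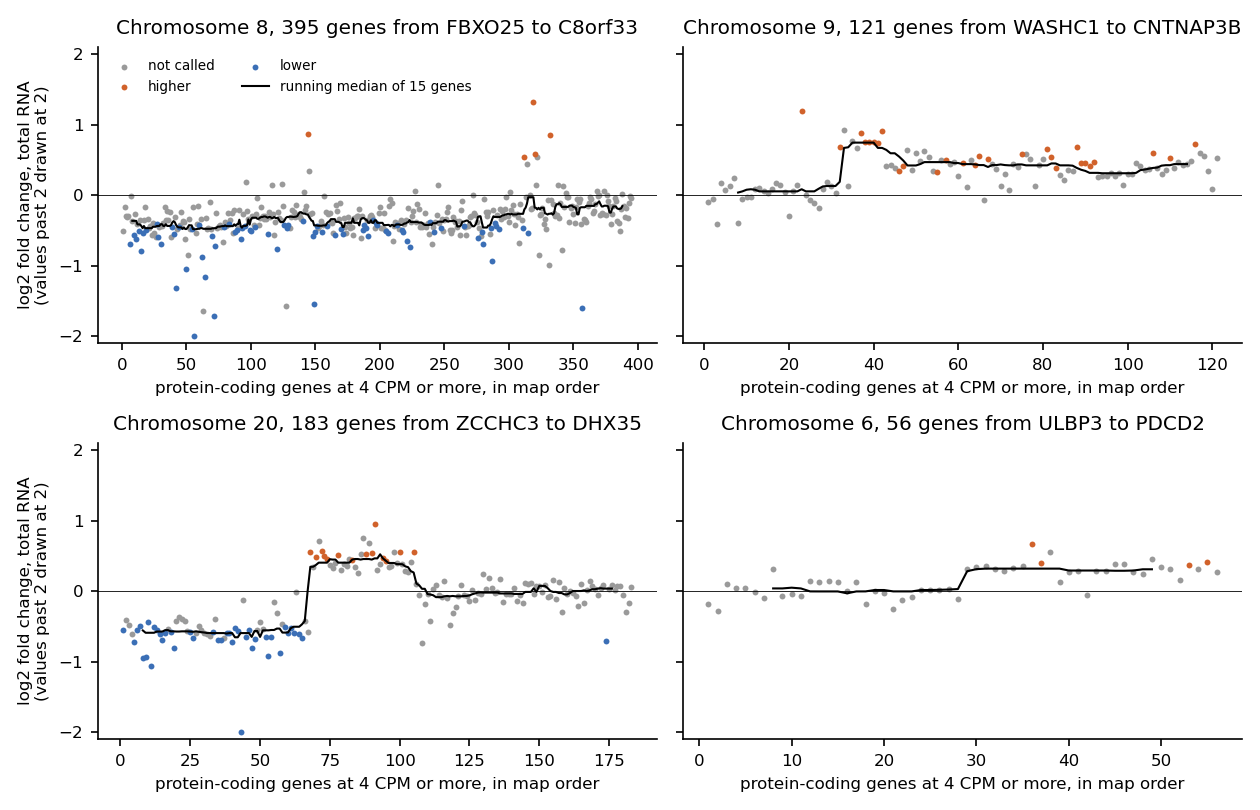
Log2 fold change in total RNA of protein-coding genes with a mean of at least 4 CPM, in map order: chromosome 8 (395 genes), the start of chromosome 9 (121), the start of chromosome 20 (183) and the end of chromosome 6 (56); the line is the running median of 15 genes. Chromosome 20 steps from about -0.58 to 0.44 and back to 0, chromosome 9 and chromosome 6 step up from 0, and chromosome 8 lies below 0 over most of its length.

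The end of chromosome 6 held a smaller step of the same kind. From SOD2 to the last gene drawn, PDCD2, 27 of 28 genes with a mean of at least 4 CPM had a positive log2 fold change, with a median of 0.31 (1.24 times), whereas 282 of the 600 genes before it did, with a median of -0.02. AGPAT4 (0.66), QKI (0.39), FAM120B (0.37) and TBP (0.42) were called. SOD2 itself, at 180 ± 2.91 and 223 ± 5.94 CPM (SD, n = 3), had a log2 fold change of 0.31 and did not pass the test (adjusted p = 0.104). The m6A writer subunit gene WTAP (0.35) lay in this stretch and was not called.

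The YTHDF3-ADAR libraries, set against the same YTHDF1-ADAR libraries, shared some of these stretches and not others. Their medians were -0.44, -0.50 and -0.38 on chromosome 8 up to 123 Mb and 0.70, 0.61 and 0.63 on chromosome 9 from RRAGA to CDKN2B, close to those of the YTHDF2-ADAR libraries. On the first stretch of chromosome 20 they were -0.04, -0.10 and -0.12, on the second 0.04, 0.07 and 0.08, and at the end of chromosome 6 they were within 0.025 of 0. These comparisons share the YTHDF1-ADAR libraries, so the values are given side by side only. Only RNA was measured in these libraries, and whether DNA copy number differed between the lines was not tested. Outside the 4 regions counted above, 63 genes were called higher and 206 lower of 24840 (0.254% and 0.829%), and their median absolute log2 fold change was 0.98, against 0.55 to 0.59 in the called genes of the regions on chromosomes 8, 9 and 20 and 0.88 in those of chromosome 19. CCND1, OXCT1, NPTX2, FAM20C and MID1 lay outside the 4 regions, and TNFRSF10D, RASSF2 and NDRG1 lay inside them.

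Zinc finger genes on chromosome 19, many of them KRAB repressors of transposable elements, differed by cluster. Of 203 tested, 23 were higher (11.3%) and 8 lower (3.94%), beside 0.785% and 1.87% of all tested protein-coding genes. The list median was 0.21. Of 219 tested zinc finger genes elsewhere 1 was higher (0.457%) and 2 lower (0.913%), with a median of 0.03. Most of the increases lay near 44 Mb or between 57 and 59 Mb, while the called ZNF568 (0.69) and ZNF875 (0.75) lay before 43 Mb and ZNF582 (0.88) between these sites. ZNF585B, also called higher before 43 Mb, was not counted in the list. Near 44 Mb ZNF226 (0.73), ZNF234 (0.79), ZNF227 (0.81) and ZNF284 (2.02) were called. The genes around them were not shifted together: from 43 to 45 Mb, 28 protein-coding genes had a mean of at least 4 CPM. Of these 14 were positive and 14 negative, with a median of 0.0074. Between 57 and 59 Mb 46 of 49 such genes were positive, with a median of 0.38. There ZNF772 was at 7.87, 7.54 and 7.47 CPM against 15.7, 15.5 and 15.4 CPM (1.03 ± 0.15, adjusted p = 0.00098) and ZNF419 at 6.73, 5.45 and 6.11 CPM against 11.98, 11.2 and 11.6 CPM (0.93 ± 0.16, adjusted p = 0.00501). The libraries of each line were close to each other in both genes. The decreases lay in other clusters of the same chromosome, such as ZNF726 at 1.41, 1.54 and 1.53 CPM against 0.329, 0.115 and 0.212 CPM (adjusted p = 9.95e-06). Reads of such similar genes can be divided differently by other counting methods.

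HOX genes, which set position along the body axis lay mostly below 0: 7 of 38 were called lower (18.4%, beside 1.87% of all tested protein-coding genes), 0 higher, and 36 of 38 had a negative log2 fold change with a median of -0.39. Of the 7, 6 belonged to the HOXB cluster on chromosome 17. HOXB6 was at 49.2, 51.3 and 37.4 CPM against 23.9, 17.8 and 19.4 CPM (-1.18 ± 0.23, adjusted p = 0.0108), and HOXB9 at 136, 123 and 122 CPM against 87.8, 84.5 and 88.0 CPM (-0.55 ± 0.08, adjusted p = 0.00137). Within the cluster HOXB7 (-0.18, adjusted p = 0.95) differed little, so the members were not shifted evenly. The call of HOXB6 was lost in 3 of the 6 fits without 1 library.

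**Figure D5:**
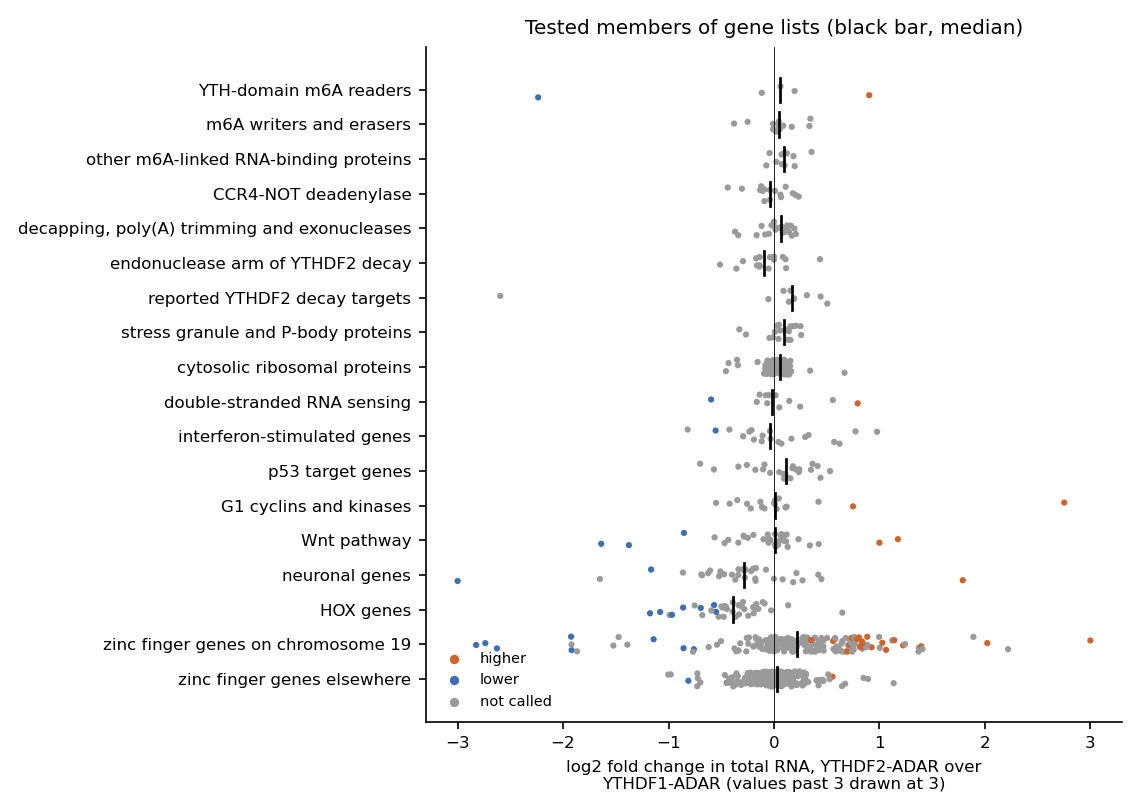
Log2 fold change in total RNA of the tested members of 18 gene lists, 1 point per gene, orange called higher and blue called lower, black bar the median. In the m6A, CCR4-NOT and decay lists only YTHDF1 and YTHDF2 are coloured. Their medians lie between -0.09 and 0.17, and single members lie further from 0, such as CNOT7 (-0.44). Of the HOX genes, 36 of 38 lie left of 0, and chromosome 19 zinc finger genes spread to both sides.

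The lists of genes around the m6A pathway had median log2 fold changes between -0.09 and 0.17. Some members in the shifted stretches lay further from 0 without a call, such as CNOT7 (-0.44) and VIRMA (-0.25) on chromosome 8 and WTAP (0.35) on chromosome 6. Of 15 writers and erasers 0 were called in either direction, with a median log2 fold change of 0.04; the methyltransferase subunits METTL3 (0.04) and METTL14 (0.05) and the demethylases FTO (0.05) and ALKBH5 (0.01) were all close to 0. The nuclear reader YTHDC1 (0.06) and the helicase reader YTHDC2 (0.20) did not pass the test. Of 11 other m6A-linked RNA-binding proteins, 0 were called (median 0.09). The decay machinery that YTHDF2 is known to use was likewise uncalled, with 0 of 16 CCR4-NOT genes (median -0.04), 0 of 23 decapping, trimming and exonuclease genes (median 0.07) and 0 of 16 genes of its endonuclease arm (median -0.09). CNOT1, the scaffold of CCR4-NOT, was at 325, 326 and 397 CPM against 379, 440 and 415 CPM (adjusted p = 0.677). Of 10 messages reported elsewhere as YTHDF2 decay targets, 0 were called, 8 were positive and the median was 0.17, with SON at 0.14, CREBBP at 0.19 and MYC at 0.44. The list medians per library were 0.22, 0.18 and 0.18 in the YTHDF2-ADAR line and 0.0026, -0.0079 and 0.0126 in the YTHDF1-ADAR line. The libraries of the lines did not overlap for 5 of the 10 upward and 1 downward, beside 8.54% and 11.6% of all tested genes. The shift of the list was not tested. TNFRSF1B, the lowest of the 10, was at 0.150, 0.330 and 0.267 CPM against 0.0898, 0 and 0.0471 CPM and did not pass the test (adjusted p = 0.0805). The total RNA counts stand beside shares of 0.785% higher and 1.87% lower of all tested protein-coding genes (0.545% and 1.28% of all tested genes). At these shares lists of this size hold few calls. In polysome RNA 1 of the 15 writers and erasers and 1 of the 10 decay targets were called lower, beside 1.59% of all tested genes.

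Genes were also grouped by whether the authors listed an editing site in them. The authors' editing tables listed 6858 genes and 43036 sites for YTHDF1-ADAR and 4547 genes and 21499 sites for YTHDF2-ADAR. The 3729 tested protein-coding genes with a total RNA score in both tables had a median log2 fold change of 0.0076, the 548 in the YTHDF2-ADAR table alone 0.03, the 2671 in the YTHDF1-ADAR table alone -0.0088, and the 8727 in neither -0.02. Calls were 0.697% higher and 1.72% lower with both, near the 0.785% and 1.87% of all protein-coding genes, while 72 of the 2671 genes in the YTHDF1-ADAR table alone were lower, against 152 of the 8727 (1.74%) in neither. In the YTHDF2-ADAR table alone 7 of 548 were higher (1.28%) and 5 lower (0.912%). Of 578 genes with 10 or more YTHDF2-ADAR sites, 6 were higher (1.04%) and 19 lower (3.29%), with a median log2 fold change of 0.014. The median level moved with the grouping, at 46.6 CPM with both, 33.7 and 35.1 CPM in 1 table alone, and 6.37 CPM in neither. When genes were split into 3 classes by level, lower calls made up 5.88%, 3.78% and 1.13% of the genes in the YTHDF1-ADAR table alone (low, middle and high level) and 2.01%, 1.73% and 0.919% of those in neither. In the low class the medians were -0.23 and -0.07, over 187 and 4724 genes. These differences between groups were not tested. MID1 had 22 listed sites, FAM20C 32 and OXCT1 8 in the YTHDF1-ADAR table, and none of the 3 was listed with a total RNA score for YTHDF2-ADAR. Detection of a site depends on the gene's level in that line, and all 3 genes were lower in YTHDF2-ADAR cells. Listing in 1 table alone is therefore not independent of the difference in level. The classes by level used the mean over the libraries of both lines, so they do not remove this dependence.

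Stress, immune and housekeeping lists are given beside the 0.785% higher and 1.87% lower of all tested protein-coding genes, at which lists of this size hold few calls. In RNA sensing 1 of 12 tested genes was higher, DDX58 (encoding RIG-I, 0.79, adjusted p = 0.0472, lost in all 6 fits without 1 library), and 1 was lower, MAVS; of 20 interferon-stimulated genes 1 was lower, USP18 (-0.55, adjusted p = 0.0174, lost in 4 of the 6). DDX58 lies in the raised stretch of chromosome 9 and MAVS in the lowered stretch of chromosome 20. None of 23 p53 targets, 25 integrated stress response genes, 20 endoplasmic reticulum chaperones, 14 heat shock genes and 25 sterol genes was called. Cytosolic ribosomal protein genes had 0 calls of 87 and a median of 0.06, and elongation factors and other TOP messages 0 of 17 (median 0.05). Of 78 mitochondrial ribosomal protein genes 3 were lower (3.85%), MRPS26 (-0.58), MRPS35 (-0.55) and MRPL13 (-0.43), with a list median of 0.02. The call of MRPL13 was lost in all 6 fits without 1 library, that of MRPS26 in 3 and that of MRPS35 in 0. MRPL13 lies in the lowered stretch of chromosome 8 and MRPS26 in that of chromosome 20. The heat shock gene HSPA1A was at 2398, 2705 and 1733 CPM against 1458, 1160 and 1177 CPM without passing the test (adjusted p = 0.734), and its reads can be split with its near-identical copy HSPA1B.

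Developmental and structural lists were mixed in direction. In the Wnt list 2 of 35 were higher (5.71%), FZD10 and LGR5, and 3 lower (8.57%), SFRP1, FZD1 and FZD7, beside 0.785% and 1.87% of all tested protein-coding genes. FZD1, a Wnt receptor, fell from 42.8, 40.6 and 46.4 CPM to 19.4, 14.7 and 16.0 CPM (log2 fold change -1.38 ± 0.14, adjusted p = 2.47e-05), and FZD7 fell by 0.85 (adjusted p = 0.00605). Of 33 neuronal genes, DPYSL3 was higher (3.03%) and NPTX2 and NEFL were lower (6.06%), with 26 negative and a list median of -0.29, though the medians of the 3 YTHDF2-ADAR libraries were 0.13, -0.54 and 0.04. Of 22 kidney and urogenital regulators 2 were higher (9.09%), the coactivator gene CITED1 (0.88, adjusted p = 0.0174, lost in 4 of the 6 fits without 1 library) and SALL1 (0.38, adjusted p = 0.03, lost in 5), while the list median was -0.21. The keratin gene KRT18 was at 29.8, 29.6 and 29.6 CPM against 20.6, 17.9 and 19.9 CPM (-0.61, adjusted p = 0.0199, lost in 5), and its partner KRT8 was at 20.4, 20.4 and 20.1 CPM against 12.5, 11.4 and 12.3 CPM without passing the test (adjusted p = 0.0953).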

How the data were processed

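Strand-marked, rRNA-depleted libraries were aligned with STAR 2.7.7 to GRCh38 and counted per gene with featureCounts 2.0.1, per the submitters' processing notes; no source used here gives the strand setting. The deposited matrix holds raw read counts per gene. The authors' editing tables hold site counts and an editing score in total RNA per gene, 1 value over the replicates, used only to group genes. One row of no human gene, with 0 to 1 counts in the 6 libraries, was left out. Reads without molecular identifiers are not independent molecules.

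Of 60675 gene rows, those passing filterByExpr (minimum count 10) over the 6 groups were fitted with edgeR 4.0.16 (TMM, robust quasi-likelihood) in R 4.3.3 over all 18 libraries; Benjamini-Hochberg adjusted p-values under 0.05 over all genes were calls. Fold changes of genes near 0 depend on edgeR's prior count. Named genes were the 12 largest called coding changes each way at 4 CPM or more, the 5 largest noncoding ones, the 5 called genes of highest CPM each way, up to 4 called members per list, the targeted genes, genes near 0 in 1 line, and 3 genes most like ADARB1; genes beside them on the map, exceptions to a stretch and further list members were named after their values were seen. The members compared and the gene lists were chosen with earlier results of these data known. Simulated counts for 26063 genes with 200 changed were recovered for 29.9% at 1.5-fold, 74.6% at 2-fold and 95.5% at 4-fold. The changed genes were drawn only from genes with higher counts than the filter requires. Libraries were simulated as independent, without variation shared between them. Alternatives were DESeq2 1.42.0, limma-voom (limma 3.58.1), other scalings, filters and library sets.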

Additional observations from a re-analysis of the deposited data

How the results depend on the processing

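No called named gene changed direction under any of 16 alternative settings; of 79 called, 51 were called in every alternative that tested them and 56 in all 6 fits that left out 1 library. The total RNA counts of higher and lower genes, 146 and 344, became 300 and 669 with only the 6 compared libraries, 72 and 175 with the 9 total RNA libraries, and 255 and 534 with DESeq2. Without normalization factors 122 were higher and 204 lower, and the median of all genes was 0.05; the cause was not tested. Leaving out each library gave 76 to 93 higher (84, 84 and 85 without YTHDF1-ADAR replicates 1 to 3, and 93, 82 and 76 without YTHDF2-ADAR replicates 1 to 3) and 156 to 232 lower. In polysome RNA, DESeq2 called 365 higher and 662 lower, against 204 and 427. With a replicate block, 171 were higher and 379 lower in total RNA. Deviations of same-numbered libraries correlated at 0.773, -0.311 and -0.0652, so the numbers do not pair the samples throughout. Across numbers, YTHDF2-ADAR replicate 2 and YTHDF1-ADAR replicate 3 correlated at 0.822, and YTHDF2-ADAR replicate 3 and YTHDF1-ADAR replicate 2 at 0.434. The remaining pairs lay between -0.75 and 0.0551. Variation shared between libraries of the 2 lines under another numbering was not modelled. The median of chromosome 8 was -0.32 without normalization factors and -0.38 without YTHDF1-ADAR replicate 1, and that of chromosome 20 from 10 to 20 Mb, which spans the step, was 0.24 without YTHDF1-ADAR replicate 3. At this number of libraries, 29.9% of simulated 1.5-fold changes were called, in genes with higher counts than the filter requires. Recovery at lower counts was not simulated, and read depth was not varied.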

Other observations

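The median log2 fold change was slightly higher in long genes than in short ones, a difference that was not tested or computed per library. The median log2 fold change of protein-coding genes was -0.04 in the length class with the shortest gene models (up to 3049 bases) and 0.03 in the class with the longest (from 7541 bases), and the same classes had medians of -0.03 and 0.03 in polysome RNA. The largest distance between libraries of 1 line, a root mean square log2 difference of 0.46 between YTHDF1-ADAR replicates 1 and 3, exceeded that between replicate 1 of both lines, 0.318. CENPF, a kinetochore gene, showed this pattern, at 73.5, 227 and 235 CPM in YTHDF1-ADAR and 74.0, 281 and 239 CPM in YTHDF2-ADAR libraries.

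Mitochondrial rRNA took 2.17% to 3.63% of reads in the YTHDF1-ADAR libraries and 2.05% to 2.63% in the YTHDF2-ADAR libraries. MT-RNR2 had a log2 fold change of -0.34 (adjusted p = 0.9998). In the YTHDF3-ADAR line the share was 0.281% to 0.428%.

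Of the genes called higher, the YTHDF3-ADAR mean lay between the means of the other lines for 87, above both for 33 and below both for 26; of those called lower, it lay between for 170, above both for 100 and below both for 74. The histone gene H3C6 fell from 8.05, 7.08 and 7.18 CPM to 4.10, 4.19 and 4.57 CPM (adjusted p = 0.00897, lost in 2 of the 6 fits that left out 1 library), and of 57 tested replication-dependent histone genes 2 were called lower and 48 were negative.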
